A study of Homo sapiens with 15 samples.

Results

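The genes described here were 48 protein-coding genes whose products act in the G2 phase of the cell cycle and in mitosis, picked by symbol from the 58780 GENCODE 29 genes of a count table. All 48 were found, and all 48 passed the filter on low counts that left 24659 genes for testing. The 15 RNA libraries, in 5 groups of 3, came from heart muscle cells of atrial type differentiated from H7, a widely used line of human embryonic stem cells. The ATRNL1 lentivirus group carried the short isoform of ATRNL1, the gene of the membrane protein attractin-like 1, and stood beside a control lentivirus group. The siRNA-1 and siRNA-2 groups each received an siRNA against ATRNL1 and stood beside a scramble siRNA group. Every group came from the same wild-type line and the same atrial protocol, in which spheroids were taken apart at day 17. Per the labels' protocols, lentiviral cells were also selected with puromycin. What the control lentivirus carried, the promoter that drove ATRNL1, and the timing of treatment and harvest were not stated in the sources used here.

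Cells prepare for division in G2, when a complex of the kinase CDK1 with B-type cyclins builds up and then drives entry into mitosis. The genes of this phase are kept off in resting cells by the DREAM complex, a repressor built on the MuvB core, and are turned on in cycling cells when the same core binds MYBL2 and FOXM1. MuvB reaches many of these promoters through a short element named the cell cycle gene homology region (CHR), often next to CCAAT boxes bound by the factor NF-Y. Human cardiomyocytes made from stem cells lose most of their capacity to divide as they mature, and transcripts of this kind are widely read as a measure of cycling.

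Promoters were examined because the genes moved together in the lentiviral libraries. The genes were picked by known function, so the shares below describe the list and were no test of that movement. RefSeq promoters on GRCh38.p14, 250 bases before to 50 after the start of transcription, were at hand for 40 of the 48 genes. The CHR was searched for as TTTGAA and as TTCGAA, and the CCAAT box as CCAAT, all on both strands, with overlaps allowed. The CHR letters stood in 30 of the 40 promoters (75%), against 16.6% of all 27305 promoters. CCAAT stood in 31 (77.5%), against 35.7% of all promoters, and both motifs stood in 25 (62.5%), against 6.58%. The 250 bases before the start are printed for the first 4 genes, in a fixed order of well-known members, whose promoter held the CHR letters. Capitals mark the CHR letters (TTTGAA, or TTCAAA on the other strand) and the CCAAT letters (CCAAT, or ATTGG on the other strand).
MKI67: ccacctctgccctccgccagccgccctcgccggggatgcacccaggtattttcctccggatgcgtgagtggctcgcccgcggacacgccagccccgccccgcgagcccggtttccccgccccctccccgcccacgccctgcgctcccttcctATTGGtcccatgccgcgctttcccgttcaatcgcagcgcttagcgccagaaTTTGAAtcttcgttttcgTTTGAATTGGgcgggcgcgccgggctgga
TOP2A: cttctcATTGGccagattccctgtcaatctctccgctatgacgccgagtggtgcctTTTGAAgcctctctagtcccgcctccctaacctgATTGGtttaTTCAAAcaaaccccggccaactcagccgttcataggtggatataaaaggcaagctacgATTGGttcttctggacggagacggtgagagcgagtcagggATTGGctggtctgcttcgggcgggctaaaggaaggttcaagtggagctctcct
CDK1: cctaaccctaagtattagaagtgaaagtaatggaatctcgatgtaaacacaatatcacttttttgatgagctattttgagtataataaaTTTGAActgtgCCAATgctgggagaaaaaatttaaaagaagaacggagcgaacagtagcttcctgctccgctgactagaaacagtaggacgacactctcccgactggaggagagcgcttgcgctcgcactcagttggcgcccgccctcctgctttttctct
PLK1: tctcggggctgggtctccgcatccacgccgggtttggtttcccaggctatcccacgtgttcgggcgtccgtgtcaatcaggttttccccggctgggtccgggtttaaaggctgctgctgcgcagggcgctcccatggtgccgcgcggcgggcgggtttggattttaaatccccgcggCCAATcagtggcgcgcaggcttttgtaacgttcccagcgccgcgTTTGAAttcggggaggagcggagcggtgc
The windows lie at chr10:128126424-128126673, minus strand, for MKI67, at chr17:40417897-40418146, minus strand, for TOP2A, at chr10:60778081-60778330, plus strand, for CDK1 and at chr16:23678639-23678888, plus strand, for PLK1. MKI67 held TTTGAA starting 47 and 29 bases before the start, and ATTGG at 98 and 24 bases, the last sharing 1 base with the nearer TTTGAA. TOP2A held the CHR letters at 194 and 151 bases and ATTGG at 244, 160, 93 and 53 bases before the start. CDK1 held TTTGAA at 161 bases and CCAAT at 150 bases, and PLK1 held CCAAT at 73 bases and TTTGAA at 29 bases. These are matches of letters, and no binding was measured.

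Total counts ran from 37078568 to 108663135 per library. Levels are CPM, counts brought to a common library total after scaling with edgeR's TMM factors. Genes were tested by edgeR's quasi-likelihood method, adjusted after Benjamini and Hochberg over all 24659 genes, and called at an adjusted p under 0.05. Each log2 fold change is given with its standard error (SE). Libraries are numbered by their column in the table, which pairs nothing. The labels do not say whether the libraries of a group are separate cultures, and p-values reflect the spread among these libraries alone, which may be technical. ATRNL1 stood at 636 to 926 CPM with the ATRNL1 lentivirus and 27.1 to 29.2 CPM with the control lentivirus. It stood at 8.25 to 10.2 CPM with siRNA-1 and 4.61 to 5.41 CPM with siRNA-2, against 13.8 to 16.8 CPM with scramble, in the direction of each label. Heart muscle genes such as TNNT2, ACTN2, RYR2 and TTN were abundant in every group, as was MYL7 of the atrial list, whereas the atrial marker SLN averaged under 0.5 CPM and NR2F1 under 1 CPM in every group. Lentiviral and siRNA libraries lay apart on the leading principal component (58.4% of the variance). In bulk RNA, fewer dividing cells and less RNA of these genes per cell cannot be told apart.

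The summed level of the 48 genes was 4848 ± 278 CPM with the ATRNL1 lentivirus and 9406 ± 311 CPM with the control lentivirus, but 1284.5 ± 20.5 CPM with siRNA-1, 1121 ± 22.0 CPM with siRNA-2 and 1121 ± 259 CPM with scramble (SD, n = 3 each). The sums of the 5 groups show that the lentiviral libraries stood far above all siRNA libraries, and that the scramble group had the widest spread. The coefficient of variation of a gene over the 3 libraries of a group had a median of 6.37% with the ATRNL1 lentivirus, 4.44% with the control lentivirus, 4.60% with siRNA-1, 5.17% with siRNA-2 and 23.0% with scramble.

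**Figure D1:**
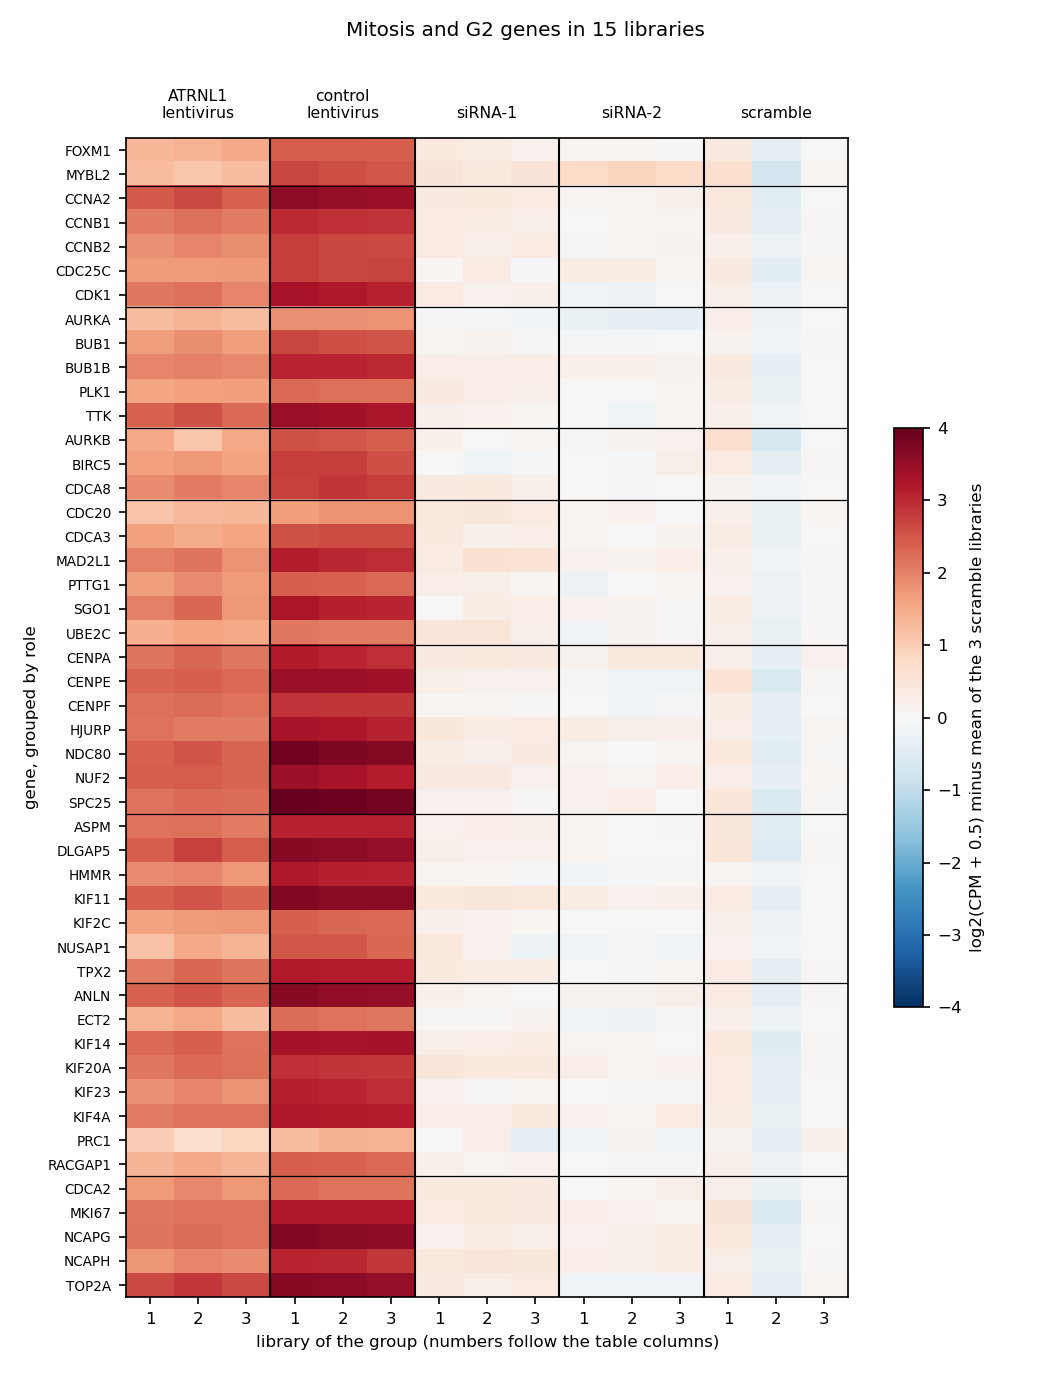
Level of each of the 48 genes (rows, grouped by role) in each of the 15 libraries (columns), as log2(CPM + 0.5) minus the gene's mean over the 3 scramble libraries. Red is above and blue below that mean. Both lentiviral groups are red in every row, the control lentivirus more so, and among the siRNA groups the scramble libraries 1 and 2 stand apart from each other.

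Per kilobase of exon, the genes ranged widely within a group. TOP2A, the topoisomerase that untangles sister chromatids, had the most CPM per kilobase, at 119 with the ATRNL1 lentivirus, 218 with the control lentivirus and 18.5 with scramble. ANLN, the cytokinetic scaffold anillin, had 70.1, 159 and 13.5 CPM per kilobase in the same groups, and TPX2, a spindle assembly factor that activates Aurora A, had 62.8, 124 and 14.1. The mitotic kinase AURKA ranked 2 of 48 per kilobase in scramble, at 15.7, and 10 of 48 with the control lentivirus, at 55.5. At the other end, PRC1, which bundles microtubules of the spindle midzone, had 0.327, 0.504 and 0.146 CPM per kilobase. PRC1 held 1402 counts over all 15 libraries, and the gene AC068831.7 on the same strand, which shares exons with it, held 4896, so its level is uncertain.

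The first comparison asked what raising ATRNL1 did against the control lentivirus. All 48 genes fell, where 18.0% of all genes tested were called lower and 37.1% were called in either direction. For each of the 48, the 3 ATRNL1 lentivirus libraries lay below the 3 control lentivirus libraries, a pattern seen in 21.5% of all genes tested, with the opposite pattern in 21.4%. The median log2 fold change was -1.02, or 2.03-fold lower, beside a median of 0.00 over all genes, and single genes ran from SPC25 at -1.74 to CDCA2 at -0.41.

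Both transcription factors of the group fell. FOXM1 (ENSG00000111206.12, chr12:2857681-2877155, minus strand), the forkhead factor that switches on G2 genes, stood at 31.2, 32.5 and 35.8 CPM in ATRNL1 lentivirus libraries 1, 2 and 3, against 66.7, 66.8 and 65.1 CPM in the control lentivirus libraries. MYBL2 (ENSG00000101057.15, chr20:43667019-43716496, plus strand), the B-Myb factor that joins MuvB in cycling cells, stood at 16.03, 14.7 and 16.1 CPM in ATRNL1 lentivirus libraries, against 44.4, 41.9 and 39.5 CPM in control lentivirus libraries. All 3 libraries with ATRNL1 were low and all 3 controls high for both genes. FOXM1 fell by 1.00 ± 0.10 (SE) on the log2 scale (adjusted p = 2.23e-08) and MYBL2 by 1.43 ± 0.16 (SE) (adjusted p = 1.23e-07), the third largest fall of the 48.

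The 5 genes of mitotic entry fell by a median of 1.01 on the log2 scale. CDK1 (ENSG00000170312.15, chr10:60778331-60794852, plus strand), the kinase that drives mitosis, stood at 113, 121 and 102 CPM in ATRNL1 lentivirus libraries, against 259, 244 and 224 CPM in control lentivirus libraries. Its activating partner CCNB1, cyclin B1, stood at 108, 120.3 and 108 CPM in ATRNL1 lentivirus libraries, against 205, 199 and 196 CPM in control lentivirus libraries. Neither gene overlapped between the groups, with the control libraries all high. CDK1 fell by 1.11 ± 0.09 (SE) (adjusted p = 2.68e-10) and CCNB1 by 0.83 ± 0.10 (SE) (adjusted p = 4.59e-07). CCNA2, the cyclin of S and G2 phase, fell by 1.01, CCNB2, the second B-type cyclin, by 0.82, and CDC25C, the phosphatase that activates CDK1, by 1.03.

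Among the mitotic kinases the falls were uneven. PLK1, which acts at centrosomes, kinetochores and the midzone, stood at 27.1, 28.5 and 29.2 CPM in ATRNL1 lentivirus libraries, against 44.05, 42.6 and 42.7 CPM in control lentivirus libraries. AURKA, the Aurora kinase of the spindle poles, stood at 107, 118 and 108 CPM in ATRNL1 lentivirus libraries, against 164, 164 and 160.1 CPM in control lentivirus libraries. Both were low in all 3 ATRNL1 libraries, yet their falls of 0.61 ± 0.09 (SE) (adjusted p = 8.61e-06) and 0.55 ± 0.08 (SE) (adjusted p = 5.54e-06) were among the smallest of the 48. The spindle checkpoint kinases BUB1 and TTK fell by 0.87 and 0.97, and BUB1B, the checkpoint protein BubR1, fell by 1.06.

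The chromosomal passenger complex corrects faulty attachments between chromosomes and the spindle. Its kinase AURKB stood at 10.4, 7.81 and 10.6 CPM in ATRNL1 lentivirus libraries, against 21.9, 21.02 and 19.7 CPM in control lentivirus libraries. Its subunit BIRC5, survivin, stood at 50.05, 53.5 and 48.7 CPM in ATRNL1 lentivirus libraries, against 109.6, 111 and 97.1 CPM in control lentivirus libraries. Libraries of the 2 groups lay apart for both genes, although ATRNL1 lentivirus library 2 was lower than the other two for AURKB. AURKB fell by 1.12 ± 0.17 (SE) (adjusted p = 1.03e-05), BIRC5 by 1.06 ± 0.11 (SE) (adjusted p = 1.57e-08) and CDCA8, borealin, by 0.84.

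The genes that control anaphase divided into larger and smaller falls. CDC20, which activates the anaphase-promoting complex, stood at 23.8, 26.4 and 26.7 CPM in ATRNL1 lentivirus libraries, against 34.1, 37.2 and 37.4 CPM in control lentivirus libraries, and fell by 0.50 ± 0.09 (SE) (adjusted p = 6.07e-05). UBE2C, the ubiquitin-conjugating enzyme of that complex, fell by 0.56, and PTTG1, securin, by 0.59. MAD2L1, the checkpoint protein that holds CDC20 inactive, fell by 1.05, and SGO1, which shields cohesion at centromeres, by 1.13. CDCA3, placed in this set although it is a trigger of mitotic entry that is itself degraded after mitosis, fell by 1.06. The smaller falls of CDC20, UBE2C and PTTG1 still left no overlap between the groups.

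The kinetochore genes included the largest fall. SPC25 (ENSG00000152253.8, chr2:168834132-168913371, minus strand), a subunit of the NDC80 complex that grips microtubules, stood at 11.8, 12.6 and 12.5 CPM in ATRNL1 lentivirus libraries, against 43.3, 41.4 and 37.98 CPM in control lentivirus libraries. Its partner NDC80 stood at 55.2, 62.1 and 53.8 CPM in ATRNL1 lentivirus libraries, against 157, 145 and 137 CPM in control lentivirus libraries. SPC25 was 3.33-fold lower, without overlap between the groups, and fell by 1.74 ± 0.13 (SE) (adjusted p = 6.44e-11). NDC80 fell by 1.36 ± 0.12 (SE) (adjusted p = 9.37e-10), whereas NUF2, another subunit of the same complex, fell by 0.92. CENPF, a large protein of the outer kinetochore, stood at 475, 493 and 468 CPM in ATRNL1 lentivirus libraries, against 779, 758 and 749 CPM in control lentivirus libraries, and fell by 0.67 ± 0.10 (SE) (adjusted p = 3.83e-06), the smallest fall of the 7. CENPE, a kinetochore motor, fell by 1.10, CENPA, the centromeric histone, by 0.88, and HJURP, which loads CENPA, by 1.12. The exons of CENPA overlap those of SLC35F6 on the same strand.

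The 7 spindle genes fell by a median of 1.05 on the log2 scale. HMMR, a microtubule-binding protein of the spindle, fell most in this set, by 1.28 ± 0.08 (SE) (adjusted p = 1.41e-12), with 55.5 ± 4.39 CPM with the ATRNL1 lentivirus and 135 ± 5.53 CPM with the control lentivirus (SD, n = 3 each). The motor KIF11, which pushes spindle poles apart, fell by 1.23, and KIF2C, a microtubule depolymerase, by 0.63. NUSAP1 and DLGAP5, which stabilise spindle microtubules, fell by 1.15 and 1.05, TPX2 by 0.99, and ASPM, a spindle pole protein, by 0.93.

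The 8 genes of the midzone and of cytokinesis also fell. KIF23 and RACGAP1, which together form centralspindlin, fell by 1.18 and 0.93. ECT2, the exchange factor that centralspindlin recruits to activate RhoA, fell by 0.77, and ANLN by 1.18. The motors KIF14, KIF4A and KIF20A fell by 1.05, 1.03 and 0.68. PRC1 fell by 0.62 ± 0.21 (SE) (adjusted p = 0.0197) and held few counts. It was not called without control lentivirus library 2 (-0.56) or 3 (-0.59), nor without ATRNL1 lentivirus library 2 (-0.50) or 3 (-0.61).

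Of the chromosome structure genes, MKI67 (ENSG00000148773.13, chr10:128096659-128126385, minus strand), the Ki-67 protein that coats mitotic chromosomes and the usual marker of cycling cells, stood at 311, 325 and 328 CPM in ATRNL1 lentivirus libraries, against 664, 664 and 668 CPM in control lentivirus libraries. TOP2A stood at 728, 833 and 733 CPM in ATRNL1 lentivirus libraries, against 1453, 1410.2 and 1339.5 CPM in control lentivirus libraries. NCAPG, a subunit of condensin I, stood at 47.9, 50.9 and 48.4 CPM in ATRNL1 lentivirus libraries, against 139.9, 132 and 129.9 CPM in control lentivirus libraries. The control libraries lay within a few CPM of each other for MKI67, and the groups did not overlap for any of these 3 genes. MKI67 fell by 1.05 ± 0.14 (SE) (adjusted p = 1.44e-06), TOP2A by 0.87 ± 0.11 (SE) (adjusted p = 3.52e-07) and NCAPG by 1.45 ± 0.11 (SE) (adjusted p = 6.74e-11). NCAPH, another condensin I subunit, fell by 1.12, and CDCA2, which brings a phosphatase to chromosomes, by 0.41. NCAPG shares exons on the opposite strand with LCORL, and no strand use was stated for the counting.

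**Figure D2:**
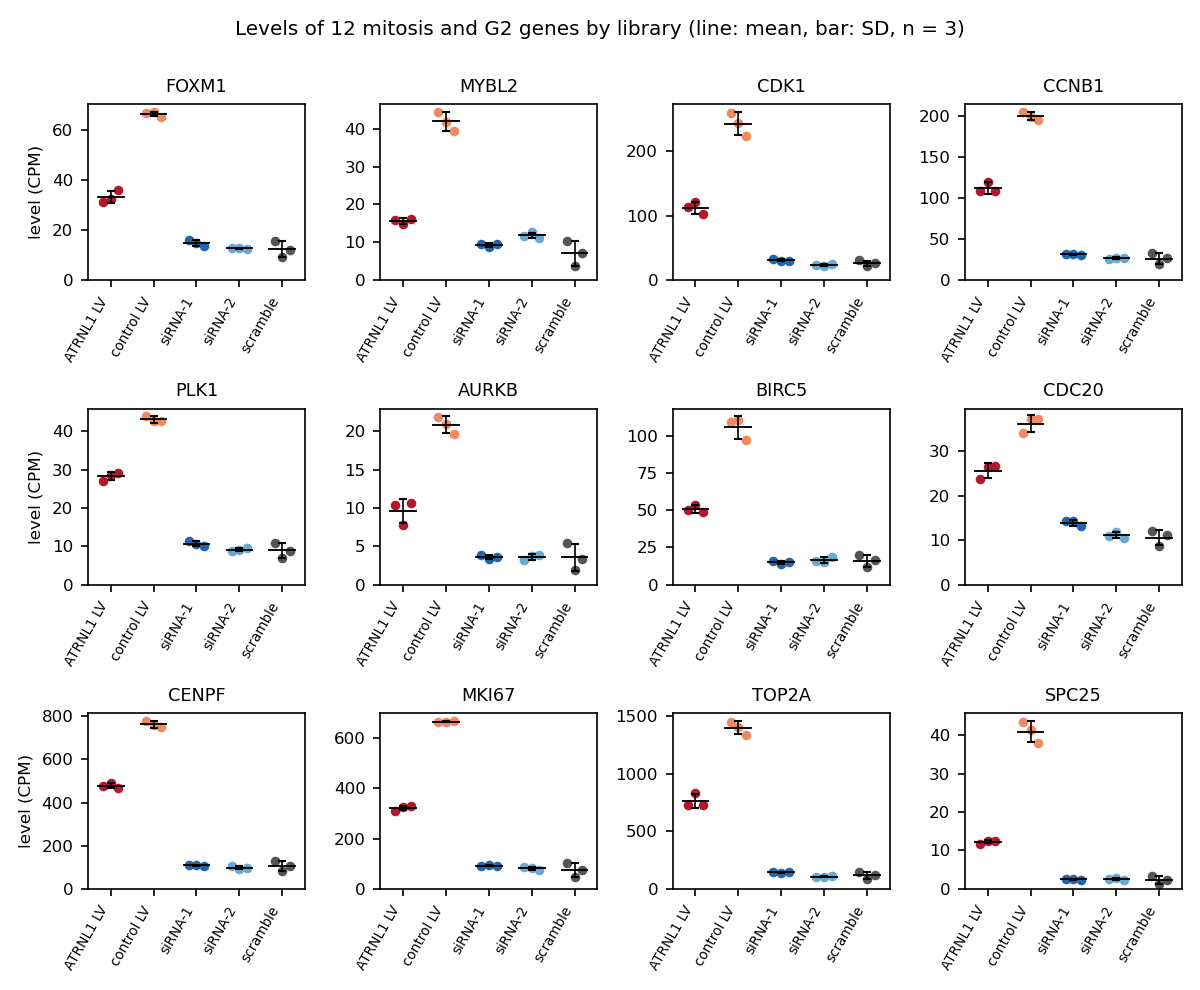
Level in CPM (linear axis from 0) of 12 of the genes in every library, with the mean as a line and the SD as a bar (n = 3). In each panel the control lentivirus libraries are highest, the ATRNL1 lentivirus libraries lie below them, and the siRNA-1, siRNA-2 and scramble libraries are low, for example 1339.5 to 1453 CPM against 728 to 833 CPM of TOP2A in the lentiviral groups.

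The size of the fall was set beside the promoter letters. The 30 genes with the CHR letters had a median log2 fold change of -1.05 and the 10 without had -1.02. SPC25, with the largest fall, held the CHR and CCAAT letters, whereas MYBL2 held neither.

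Other cell types were read beside these falls. Of all genes tested, 19.1% were called higher and 18.0% lower in the same comparison. Of the 12 cardiomyocyte markers, 6 rose and 3 fell with the ATRNL1 lentivirus, and their summed level was 67413 to 68813 CPM, against 58924 to 62282 CPM with the control lentivirus. The 6 smooth muscle and pericyte markers summed to 748 to 824 CPM with the ATRNL1 lentivirus and 900.02 to 914 CPM with the control lentivirus, with 1 up and 1 down, and PDGFRB was under 0.5 CPM in both groups. The 7 fibroblast markers summed to 130.1 to 164 CPM with the ATRNL1 lentivirus and 119 to 124 CPM with the control lentivirus, with 3 up and 1 down and DCN under 0.5 CPM in both groups. Of the 6 endothelial markers, 5 averaged under 0.5 CPM in every group, and KDR alone was above. Of 22 genes of the unfolded protein response, a stress response, 14 rose and none fell with the ATRNL1 lentivirus, with a median log2 fold change of 0.50. Of the 5 ventricular markers, 4 rose and none fell, with a median of 0.85 and summed levels of 5232 to 5958 CPM with the ATRNL1 lentivirus, against 3133 to 3599 CPM with the control lentivirus. Of the 10 atrial markers, none rose and 3 fell, with summed levels of 3442 to 3609 CPM with the ATRNL1 lentivirus, against 4427 to 4495 CPM with the control lentivirus. The epicardial marker WT1 averaged 9.06 CPM with the ATRNL1 lentivirus and 4.41 CPM with the control lentivirus, and the neural marker ELAVL3 1.01 CPM and 0.209 CPM in the same groups, both called higher. The part of these genes and markers in the result was not tested. Among the pluripotent markers, POU5F1, NANOG and SOX2 were under 0.5 CPM in every group, while DNMT3B averaged 7.91 CPM with the ATRNL1 lentivirus and 12.1 CPM with the control lentivirus.

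The second comparison set the control lentivirus against scramble, to show what level the control stood at. All 48 genes rose, where 30.3% of all genes tested were called higher and 63.6% were called in either direction. The 3 control lentivirus libraries lay above all 3 scramble libraries for each gene, as for 32.9% of all genes tested, while 35.6% lay wholly below. The median log2 fold change was 3.04, or 8.22-fold higher, beside a median of -0.06 over all genes, and genes ran from PRC1 at 1.77 to SPC25 at 4.15. With totals alone as the scaling, the median of all genes was -0.26 and that of the 48 was 2.84. The lentivirus, puromycin and the time of harvest cannot be told apart in this comparison.

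Markers were called in this comparison too, where 30.3% of all genes tested were called higher, 33.2% lower and 63.6% in either direction. Of the 22 genes of the unfolded protein response, none rose and 20 fell, with a median of -1.06. Of the 5 ventricular markers 1 rose and 3 fell, of the 10 atrial markers 5 rose and none fell, and of the 12 cardiomyocyte markers 5 rose and 4 fell. NKX2-5, an early heart transcription factor, averaged 38.9 CPM with the control lentivirus and 136 CPM with scramble. Of the 6 smooth muscle and pericyte markers 4 rose and 2 fell. RGS5 averaged 349 CPM with the control lentivirus and 97.9 CPM with scramble, and ACTA2 314 CPM and 104 CPM in the same groups. The 2 that fell were CSPG4, at 5.15 CPM and 8.69 CPM, and PDGFRB, at 0.156 CPM and 0.447 CPM, in these groups. Of the 7 fibroblast markers 2 rose and 3 fell. The part of these markers in the rise was not tested.

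The kinetochore genes had the highest median of the 9 roles, at 3.37 on the log2 scale. SPC25 stood at 43.3, 41.4 and 37.98 CPM in control lentivirus libraries and 3.30, 1.39 and 2.35 CPM in scramble libraries. NDC80 stood at 157, 145 and 137 CPM in control lentivirus libraries and 14.1, 7.40 and 10.8 CPM in scramble libraries. NCAPG stood at 139.9, 132 and 129.9 CPM in control lentivirus libraries and 14.02, 7.82 and 10.2 CPM in scramble libraries. The lowest control lentivirus library was many times the highest scramble library for all 3 genes, which rose by 4.15 ± 0.15, 3.78 ± 0.13 and 3.66 ± 0.12. MKI67 stood at 664, 664 and 668 CPM in control lentivirus libraries and 103, 47.7 and 74.8 CPM in scramble libraries, and rose by 3.15 ± 0.15 (adjusted p = 2.69e-15). The smallest rises beside PRC1 were those of CDC20 (1.78), AURKA (1.83) and UBE2C (2.12).

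With both lentiviral groups set beside scramble, the ATRNL1 lentivirus lay between. All 48 genes were higher in every ATRNL1 lentivirus library than in every scramble library, as were 28.3% of all genes tested. The mean level with the ATRNL1 lentivirus was a median of 4.10 times that with scramble, from 2.20 to 6.42 times. Both lentiviral comparisons share the control lentivirus libraries, so the values of a gene in them are not independent. AURKA, CDC20, UBE2C, PLK1 and CDCA2 had log2 changes of -0.55, -0.50, -0.56, -0.61 and -0.41 for the ATRNL1 lentivirus against the control lentivirus. The same 5 genes had 1.83, 1.78, 2.12, 2.28 and 2.22 for the control lentivirus against scramble.

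**Figure D3:**
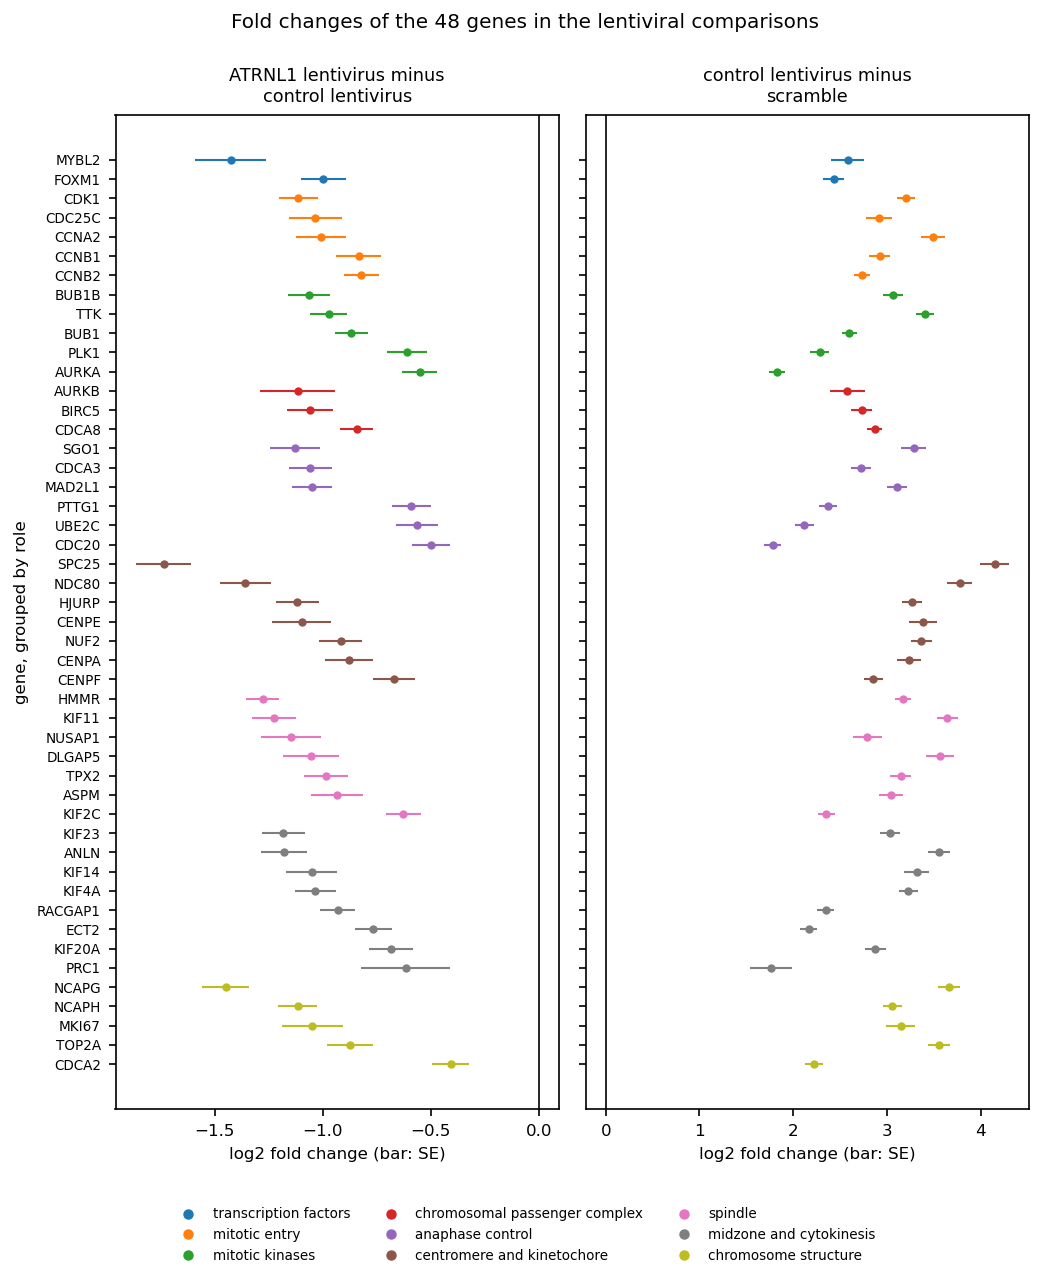
Log2 fold change of each gene (rows, grouped by role and ordered within a role by the left panel) for the ATRNL1 lentivirus against the control lentivirus (left) and the control lentivirus against scramble (right), with the SE as a bar. All 48 points lie below 0 on the left, down to -1.74 for SPC25, and above 0 on the right, up to 4.15 for SPC25.

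The siRNA comparisons rest on scramble libraries that differed from each other. Scramble library 1 was the highest of the 3 for 47 of the 48 genes, library 2 was the lowest for all 48, and library 3 lay between for 47. Library 1 had a median of 1.59 times the level of library 2, from 1.20 to 2.83 times. For MKI67 the 3 scramble libraries stood at 103, 47.7 and 74.8 CPM, for MYBL2 at 10.4, 3.75 and 7.12 CPM and for AURKB at 5.47, 1.93 and 3.34 CPM. Counts of scramble library 3 were fitted by a mix of 49% of library 1 and 51% of library 2. The median squared deviation from this mix was 1.85 times that of counting noise, over those of the 48 genes with enough counts. The same fit of library 1 or of library 2 from the other two gave 42.2 and 47.7 times. Shares were held between 0 and 1, and both of these fits came out as library 3 alone. Because library 3 lay between the others, this contrast follows from that order and cannot decide on a pool. Over all 14585 genes with enough counts, the same ratio of squared deviations was 1.94 for library 3, and 5.71 and 6.19 for libraries 1 and 2. In the other groups, this ratio was also taken over all genes with enough counts for the library best fitted by such a mix. It was 8.04 with the ATRNL1 lentivirus, 2.55 with the control lentivirus, 1.95 with siRNA-1 and 3.24 with siRNA-2. In 4 of the 5 groups, all but scramble, 1 sample title joins the digits of the other titles of its group. The labels do not say what this means and name no pool. Were 1 library of a group a pool of the others, its 3 libraries would not be independent, and every SD and p-value here would be affected.

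Genes of a stress response were also measured in these libraries. The mean log2(CPM + 0.5) of 22 genes of the unfolded protein response was 6.57, 7.61 and 7.20 in scramble libraries 1, 2 and 3, and 5.83 to 6.54 over the other 12 libraries. The same measure over the 48 mitosis genes was 4.15, 3.50 and 3.88 in the 3 scramble libraries. Against scramble, 3.76% of all genes tested were called lower with siRNA-1 and 8.48% with siRNA-2. Of the 22 stress genes, 21 fell with siRNA-1 and 20 with siRNA-2, none rising. Their part in the siRNA results was not tested.

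Against scramble, siRNA-1 gave 10 genes that rose and none that fell, where 5.85% of all genes tested were called higher, 3.76% lower and 9.61% in either direction. The median log2 fold change was 0.24, beside -0.01 over all genes. The groups did not overlap for 11 of the 48, against 28.8% of all genes tested. At an unadjusted p under 0.05 there were 24 higher and 0 lower, and DESeq2's Wald test called 12 higher and 0 lower. MAD2L1 stood at 11.1, 13.8 and 13.04 CPM in siRNA-1 libraries, against 10.2, 7.998 and 8.26 CPM in scramble libraries. NCAPH stood at 8.51, 8.89 and 8.87 CPM in siRNA-1 libraries, against 7.53, 5.07 and 6.43 CPM in scramble libraries. KIF20A stood at 27.2, 25.6 and 25.7 CPM in siRNA-1 libraries, against 24.6, 14.7 and 20.1 CPM in scramble libraries. For these 3 genes every siRNA-1 library was above every scramble library, with scramble library 1 the nearest below. KIF20A shares exons on the opposite strand with BRD8 and CDC23. MAD2L1 rose by 0.53 ± 0.10 (adjusted p = 0.00130), NCAPH by 0.47 ± 0.11 (adjusted p = 0.00409) and KIF20A by 0.41 ± 0.11 (adjusted p = 0.0155). The other called genes were KIF11 (0.41), UBE2C (0.40), CDC20 (0.40), CDCA2 (0.39), HJURP (0.36), CDCA8 (0.35) and CCNB2 (0.30). CDC20 stood at 14.2, 14.4 and 13.2 CPM in siRNA-1 libraries, against 11.98, 8.61 and 11.1 CPM in scramble libraries.

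Markers of other cells were called in this comparison as well. Of the 7 fibroblast markers 3 rose and none fell, where 5.85% of all genes tested were called higher. POSTN averaged 39.7 CPM with siRNA-1 and 20.3 CPM with scramble, and PDGFRA and COL1A1 had log2 fold changes of 0.45 and 0.29. COL3A1, not called, averaged less, at 69.5 CPM with siRNA-1 and 82.5 CPM with scramble. The 7 summed to 216 to 239 CPM with siRNA-1 and 160.5 to 227 CPM with scramble. WT1 and DNMT3B also rose, by 0.57 and 0.63 on the log2 scale. With siRNA-2 against scramble, 2 of the 7 fibroblast markers rose and none fell, where 9.64% of all genes tested were called higher. DNMT3B rose by 0.62 in that comparison. Their part in the siRNA results was not tested.

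Most of the usual marker genes were not called with siRNA-1. MKI67 stood at 90.4, 95.4 and 91.8 CPM and TOP2A at 149, 139 and 145 CPM in siRNA-1 libraries, against 103, 47.7 and 74.8 CPM and 146, 88.8 and 122 CPM in scramble libraries. CDK1 stood at 32.6, 29.5 and 29.8 CPM and CCNB1 at 32.3, 31.8 and 30.7 CPM in siRNA-1 libraries, against 30.5, 22.2 and 26.1 CPM and 32.9, 19.4 and 26.9 CPM in scramble libraries. In all 4 genes scramble library 1 lay within or above the siRNA-1 range and scramble library 2 below it. AURKB stood at 3.85, 3.33 and 3.63 CPM in siRNA-1 libraries, against 5.47, 1.93 and 3.34 CPM in scramble libraries. PLK1 stood at 11.4, 10.6 and 10.1 CPM and BIRC5 at 15.7, 13.8 and 15.3 CPM in siRNA-1 libraries, against 10.9, 7.04 and 8.82 CPM and 19.7, 11.96 and 16.3 CPM in scramble libraries. CENPF stood at 108.8, 112 and 107 CPM and FOXM1 at 15.8, 14.8 and 13.8 CPM in siRNA-1 libraries, against 128, 82.3 and 106 CPM and 15.5, 9.27 and 12.2 CPM in scramble libraries. These ranges overlapped.

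The count with siRNA-1 turned on which scramble library served as control. Against scramble library 1 alone, 0 of the 48 were called, with a median of -0.06, where 2.12% of all genes were called. Against library 2 alone, 39 rose, with a median of 0.66, where 6.21% of all genes were called higher, 3.1% lower and 9.31% in either direction. Against library 3 alone, 7 rose, with a median of 0.26, where 2.73% of all genes were called higher and 1.26% lower. MAD2L1 had log2 fold changes of 0.30, 0.67 and 0.63 against libraries 1, 2 and 3 alone, and was called against libraries 2 and 3. With all groups kept and scramble library 1 left out, 35 rose, where 7.62% of all genes were called higher, and with library 2 left out, 2 rose, where 3.91% were. With a sole control library, that library was assumed to vary like those of the other groups, which alone supplied the spread.

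**Figure D4:**
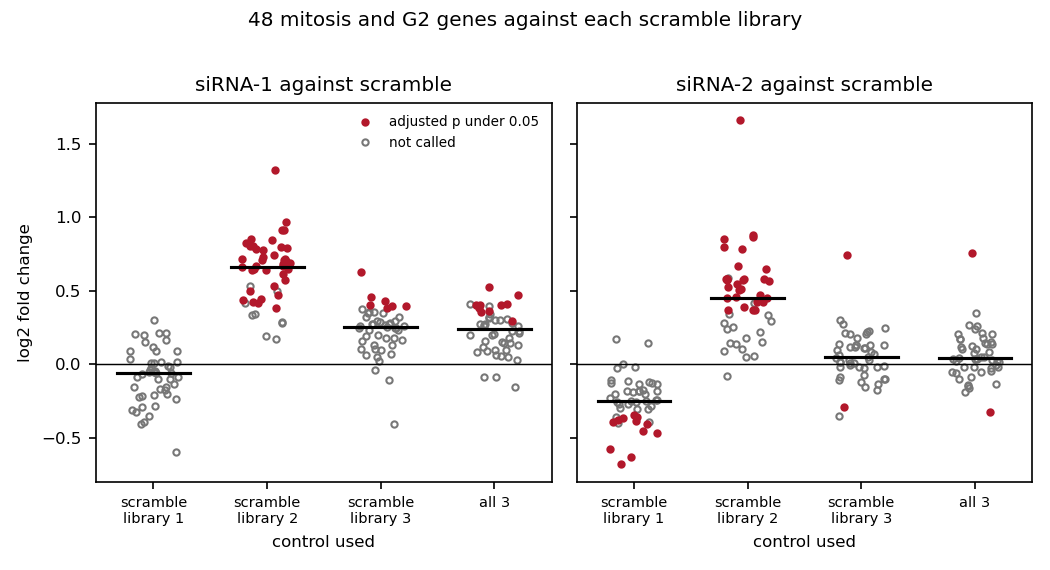
Log2 fold change of each of the 48 genes (points) for siRNA-1 (left) and siRNA-2 (right) when scramble library 1, 2 or 3 alone, or all 3, served as control. Red points passed an adjusted p under 0.05, and black lines are medians, which for siRNA-1 were -0.06, 0.66, 0.26 and 0.24 and for siRNA-2 were -0.25, 0.45, 0.05 and 0.04.

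Against scramble, siRNA-2 gave 1 gene that rose and 1 that fell, where 9.64% of all genes tested were called higher, 8.48% lower and 18.1% in either direction. The median log2 fold change was 0.04, beside 0.00 over all genes, and the groups did not overlap for 2 of the 48, against 36.7% of all genes tested. MYBL2 stood at 11.7, 12.6 and 11.3 CPM in siRNA-2 libraries, against 10.4, 3.75 and 7.12 CPM in scramble libraries. AURKA stood at 37.5, 36.01 and 36.2 CPM in siRNA-2 libraries, against 54.2, 38.6 and 44.9 CPM in scramble libraries. MYBL2 was high in all 3 siRNA-2 libraries and AURKA low in all 3, beyond the scramble range in both cases. MYBL2 rose by 0.76 ± 0.18 (adjusted p = 0.00291) and AURKA fell by 0.32 ± 0.08 (SE) (adjusted p = 0.00707). MYBL2 changed by 0.17, 1.66 and 0.74 against scramble libraries 1, 2 and 3 alone, and AURKA by -0.58, -0.08 and -0.29, with MYBL2 not called against library 1 and AURKA not called against library 2.

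The other well-known members overlapped between siRNA-2 and scramble. MKI67 stood at 87.1, 81.4 and 77.3 CPM, CDK1 at 23.6, 22.4 and 25.7 CPM and CCNB1 at 26.00, 27.1 and 27.7 CPM in siRNA-2 libraries, to be read against the scramble values given for siRNA-1. AURKB stood at 3.17, 3.74 and 3.82 CPM, BIRC5 at 15.7, 15.2 and 18.5 CPM and PLK1 at 8.88, 8.89 and 9.57 CPM in the same libraries. CENPF stood at 105, 92.3 and 97.2 CPM, FOXM1 at 12.7, 12.8 and 12.5 CPM in the siRNA-2 libraries. CDC20 stood at 11.03, 11.8 and 10.5 CPM in siRNA-2 libraries, against 11.98, 8.61 and 11.1 CPM in scramble libraries. None of these 9 genes was called. Against scramble library 1 alone 12 genes fell and none rose, with a median of -0.25, where 3.62% of all genes were called lower, 3.13% higher and 6.74% in either direction. Against library 2 alone 30 rose and none fell, with a median of 0.45, where 7.51% of all genes were called higher and 13.1% in either direction. Against library 3 alone 1 rose and 1 fell, where 4.77% of all genes were called higher, 3.73% lower and 8.5% in either direction.

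Set directly against each other, siRNA-1 was higher than siRNA-2 for 5 genes and lower for none. Of all genes tested, 5.6% were called higher, 4.53% lower and 10.1% in either direction. The median log2 fold change was 0.18, beside -0.01 over all genes. The groups did not overlap for 33 of the 48, against 33.9% of all genes tested. This contrast leaves out the scramble libraries, but the spread of a gene was estimated over all 15 libraries, scramble included. Fitted on siRNA-1 and siRNA-2 alone, 26 of the 48 were called higher and 1 lower. The shares of all genes were then 11.9% higher and 10% lower. TOP2A stood at 149, 139 and 145 CPM in siRNA-1 libraries and 108, 106 and 109.1 CPM in siRNA-2 libraries. UBE2C stood at 15.9, 15.9 and 13.5 CPM in siRNA-1 libraries and 10.2, 12.6 and 11.8 CPM in siRNA-2 libraries. CDCA8 stood at 9.17, 9.38 and 8.36 CPM in siRNA-1 libraries and 7.10, 6.62 and 7.003 CPM in siRNA-2 libraries. All siRNA-1 libraries were above all siRNA-2 libraries for these 3 genes, which were higher by 0.42 ± 0.11 (adjusted p = 0.0119), 0.39 ± 0.10 (adjusted p = 0.0169) and 0.37 ± 0.09 (adjusted p = 0.00560). CDK1 was higher by 0.36 ± 0.09 and CDC20 by 0.32 ± 0.10. MYBL2 and AURKA, the genes called with siRNA-2 against scramble, had siRNA-1 minus siRNA-2 differences of -0.35 and 0.24. Neither was called, although the groups did not overlap for either gene. ATRNL1 itself was lower with siRNA-2 than with siRNA-1, as given above. Leaving out 1 library of either group left 2 to 5 of the 48 called, with 2 without siRNA-1 library 1, siRNA-2 library 1 or siRNA-2 library 2.

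Other genes of the cell cycle were counted from lists. Of 59 further G2 and mitosis genes, all 59 fell with the ATRNL1 lentivirus against the control lentivirus, with a median log2 fold change of -1.04. The centromere genes CENPU and CENPM fell most, to 33.0 ± 1.88 CPM and 1.10 ± 0.299 CPM with the ATRNL1 lentivirus, against 132 ± 3.86 CPM and 4.01 ± 0.523 CPM with the control lentivirus (SD, n = 3 each). All 59 rose with the control lentivirus against scramble, with a median of 2.43, led by PBK, a mitotic kinase (3.99), and CEP55, a protein of the final cut between daughter cells (3.89). Of the same 59, 4 rose and none fell with siRNA-1, and 4 rose and 2 fell with siRNA-2, beside the shares of all genes called higher of 5.85% and 9.64% in these comparisons. Against scramble library 1 alone, 1 rose and 1 fell with siRNA-1, and 1 rose and 4 fell with siRNA-2. CIT, the citron kinase of cytokinesis, rose with both, by 0.72 ± 0.10 for siRNA-1 and 0.89 ± 0.10 for siRNA-2, comparisons that share the scramble libraries. The CHR letters stood in 34 of the 50 promoters at hand for this list (68%).

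Genes of DNA replication and S phase were counted in the same way. All 45 fell with the ATRNL1 lentivirus against the control lentivirus, with a median of -1.36. E2F2, a factor that drives S phase genes, fell by 2.22 ± 0.12 on the log2 scale, and RRM2, a subunit of the enzyme that makes deoxynucleotides, fell by 2.16 ± 0.19. Of the 45, 43 rose and 1 fell with the control lentivirus against scramble, with a median of 1.85 and RRM2 at 4.08. Against scramble, 17 rose and none fell with siRNA-1, where 5.85% of all genes tested were called higher. With siRNA-2 against scramble, 19 rose and 3 fell, where 9.64% of all genes were called higher and 8.48% lower. Against scramble library 1 alone, those counts were 1 higher and 0 lower for siRNA-1 and 4 higher and 0 lower for siRNA-2. The CHR letters stood in 2 of the 39 promoters at hand for this list (5.13%).

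**Figure D5:**
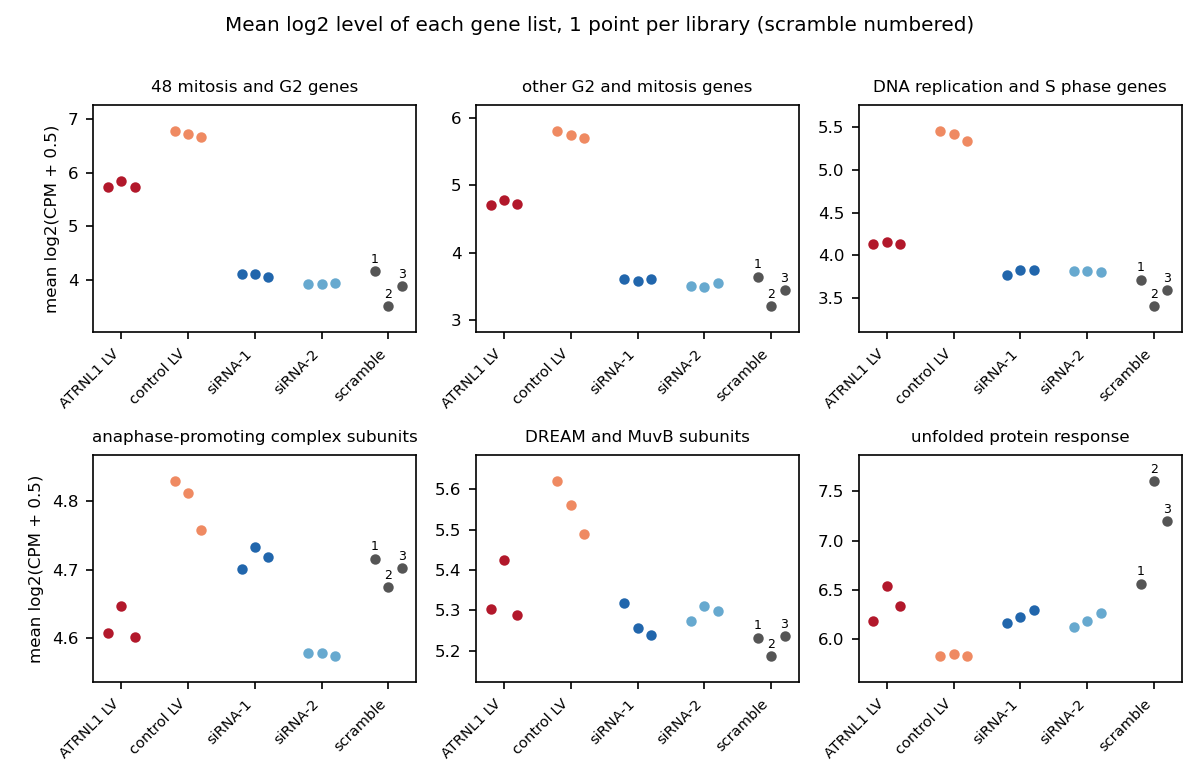
Mean log2(CPM + 0.5) of the 48 genes and of 5 other gene lists in each library (points), with scramble libraries numbered and the vertical axis of each panel cut to its own range. The control lentivirus libraries are highest in every panel but that of the unfolded protein response, which is highest in scramble library 2, at 7.61.

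The machines that act on these genes and their products gave mixed directions. Of all genes tested, 19.1% were called higher and 18.0% lower with the ATRNL1 lentivirus against the control lentivirus. Of 16 subunits and activators of the anaphase-promoting complex, which destroys securin and the cyclins, 2 rose and 10 fell with the ATRNL1 lentivirus against the control lentivirus, with a median of -0.25. CDC27, a core subunit of that complex, averaged 221 ± 23.8 CPM with the ATRNL1 lentivirus and 309 ± 12.1 CPM with the control lentivirus (SD, n = 3 each). Of 10 subunits of DREAM and MuvB, 2 rose and 6 fell, with a median of -0.35, including TFDP1, the partner of E2F factors, at -0.76, and LIN54, the subunit that binds the CHR, at -0.62. Of 15 inhibitors and pocket proteins, 6 rose and 6 fell, led by CDKN2C, an inhibitor of CDK4 and CDK6, at -1.50, and RBL1, the pocket protein p107, at -1.02. Against scramble, the control lentivirus had more CDKN2C, by 4.09 on the log2 scale, and less CDKN1A, the p53 target p21, at 70.6 ± 3.71 CPM, against 403 ± 47.2 CPM with scramble (SD, n = 3 each).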

How the data were processed

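RNA was extracted from H7-derived atrial cardiomyocytes and sequenced after ribosomal RNA depletion, per the labels' protocols, although the molecule field names polyA RNA. The authors deposited 1 table of raw read counts per gene, whole numbers with no normalization, in 59429 rows and 15 columns. The submitters' processing notes name GRCh 38, the aligner STAR 2.7.9a and DESeq2 1.30.1, without saying what each did. Neither the counting program nor its use of strand was stated there, and reads of overlapping genes cannot be told apart. Symbols, positions and exon lengths came from GENCODE 29 on GRCh 38, which matched 58780 rows. Totals and tests excluded the other 649 rows, which named no gene and took 0.00157% to 0.00437% of the reads in a library. The group of a library, but not its labelled sample, could be read from its column name.

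From these counts, genes were filtered with filterByExpr by group, scaled with TMM and fitted in edgeR 4.0.16 (R 4.3.3) with 1 mean per group across the 15 libraries, using the quasi-likelihood test and Benjamini-Hochberg adjustment. The biological coefficient of variation was 8.24%. The SE is the log2 fold change divided by the square root of F. The procedure was tested on simulated data. Alternatives were DESeq2 1.42.0 size factors and Wald test, library totals alone, no filter, limma 3.58.1 voom with quality weights, the groups compared alone, each library left out, and each scramble library as sole control. Values in every library are given for 11 well-known members. Per comparison, values in the libraries compared are given for up to 3 called members with the largest change at a mean of at least 1 CPM. Up to 2 called members are named per list. The members and lists were chosen with earlier results of these data known.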

Additional observations from a re-analysis of the deposited data

Results flagged for a closer look

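The effects of the 2 siRNAs differed for 5 of the 48 genes, by edgeR's quasi-likelihood test of siRNA-1 against siRNA-2 with Benjamini-Hochberg adjustment. Of all genes tested, 10.1% were called in this contrast, so the count was near that of genes at large. The log2 difference, siRNA-1 minus siRNA-2, was 0.42 for TOP2A, 0.39 for UBE2C, 0.37 for CDCA8, 0.36 for CDK1 and 0.32 for CDC20, each higher in all 3 siRNA-1 libraries than in all 3 siRNA-2 libraries. In each case a difference between the 2 knockdowns of the same gene drew attention. CDCA8 alone of the 5 was called with any 1 library left out.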

How the results depend on the processing

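The 48 falls with the ATRNL1 lentivirus and the 48 rises with the control lentivirus kept their direction under every alternative run, with 47 to 48 and 48 to 48 called when 1 library was left out. The gene lost was PRC1. Counts with the siRNAs moved. For siRNA-1 against scramble, 10 called (9.61% of all genes) became 20 with no filter on low counts (5.65%), 30 with voom quality weights (29.7%), which gave scramble library 3 a weight of 6.61, and 5 with the groups compared alone (10.3%). It became 0 and 39 with scramble library 1 and 2 as the sole control, and ran from 2 to 35 with 1 library left out. For siRNA-2 against scramble, 2 called (18.1% of all genes) became 5 with library totals alone (20.2%), 10 with voom (40.5%), 1 with the groups compared alone (21.5%), and 12 and 30 with scramble library 1 and 2 as the sole control. It ran from 2 to 15 with 1 library left out (12.3% to 18% of all genes), and the direction changed. Without scramble library 1, 15 rose and 0 fell, with a median of 0.23. Without scramble library 2, 1 rose and 5 fell, with a median of -0.11. For siRNA-1 against siRNA-2, 5 called (10.1% of all genes) became 11 with no filter (5.63%) and 8 with DESeq2's Wald test (11.0%). The count became 19 with voom (20.8%) and 27 with the groups compared alone (21.9%). With 1 library left out it ran from 2 to 5 (5.67% to 6.67%). An alternative chosen after seeing the data left out, in every group, the library nearest to a mix of the other two. It called 0 in each siRNA comparison, with 2 libraries a group, 47 for the ATRNL1 lentivirus and 48 for the control lentivirus. Its medians were 0.24 for siRNA-1, 0.04 for siRNA-2 and 0.16 between them, beside 0.24, 0.04 and 0.18 with all libraries, and it called 1.77%, 5.63% and 1.87% of all genes. The cause was not tested. No paired analysis was possible because the columns carry no number that ties a library of one group to a library of another.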

Other observations

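Of 7 G1 cyclins and kinases, which lead into the cycle, 1 was higher and 1 lower with siRNA-1 than with siRNA-2, with a median log2 difference of 0.09, where 10.1% of all genes were called. CCND1, cyclin D1, averaged 275 ± 17.0 CPM in siRNA-1 libraries and 162 ± 3.93 CPM in siRNA-2 libraries, beside 237 ± 8.65 CPM in scramble libraries (SD, n = 3 each). CCND3, cyclin D3, averaged 13.4 ± 0.652 CPM in siRNA-1 libraries, against 23.3 ± 2.49 CPM in siRNA-2 libraries. The difference of siRNA-1 minus siRNA-2 was 0.76 ± 0.08 for CCND1 (adjusted p = 3.01e-07) and -0.80 ± 0.09 for CCND3 (adjusted p = 5.84e-07), on the log2 scale with its SE, by edgeR's quasi-likelihood test. CDC23, a subunit of the anaphase-promoting complex whose exons overlap those of KIF20A on the opposite strand, averaged 56.7 ± 0.263 CPM in siRNA-1 libraries and 41.2 ± 1.41 CPM in siRNA-2 libraries.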
